A study of Mus musculus with 10 samples.

Results

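Genes of glucose uptake, glycolysis, lactate handling and glycogen turnover were followed in hearts of mice labelled Lmna knockout and of their wild-type counterparts. The set was chosen by name, as 35 genes that carry out or control these steps. A row was present for 34 of them among 14626 named genes of the deposited per-library table, and Eno1 was not analysed here. Of the 34, 33 passed the minimum mean signal for testing, and Aldoc did not. The 10 libraries came from hearts of 5 Lmna knockout (Lmna KO) mice, which the design text writes as Lmna -/-, and 5 wild-type (WT) mice. All mice were on a C57BL/6 background and 14 days old, and no treatment is given. The sources used here do not say how the allele was made or in which cells it acts. Whole hearts were used, so fewer cells of a type and less RNA per cell cannot be told apart in any value below.

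Glucose enters muscle cells through facilitative transporters and is trapped by hexokinase as glucose 6-phosphate. That product either runs down glycolysis to pyruvate and lactate or is stored as glycogen. Phosphofructokinase is the main control point of the glycolytic route, and its activator, fructose 2,6-bisphosphate, is made and removed by the PFKFB enzymes. In the weeks after birth the heart shifts from glucose and lactate toward fatty acids as its main fuel, and several steps change from the form used in many tissues to a muscle form.

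Library totals ran from 15259545 to 22146030 reads. Values are signal units, read counts scaled by the authors to the effective library size (CPM). Lmna, which encodes lamins A and C, averaged 33.7 ± 10.3 in Lmna KO and 106 ± 2.95 in WT (SD, n = 5 each), so all 5 knockout libraries lay below all 5 WT libraries. Knockout library 5 stood apart. Its Lmna signal was the highest of the knockouts, at 48.9 against 22.1 to 38.45 in the others. Its genes correlated with those of WT libraries at 0.905 on average, other knockouts at 0.962 to 0.985 and WT libraries among themselves at 0.989 to 0.991. For genes with a log2 change above 0.1 in size, the value without it is given where it moved by over 1.5 times. The 12 markers of cardiomyocytes, the defining cells of the labelled tissue, were at high signal in every library. Their summed signal was 90090 to 159500 in Lmna KO and 158100 to 175400 in WT. Relative to the WT mean it was -0.87 and -0.93 on the log2 scale in knockout libraries 2 and 5, and -0.10, -0.34 and -0.14 in knockout libraries 1, 3 and 4. None of the 12 cardiomyocyte markers was near 0. Atrial markers summed to 7004 in knockout library 5, to 122.6 to 257.1 in the other knockouts and to 35.0 to 79.5 in WT. Endothelial markers summed to 1068 to 1482 in Lmna KO and 1506 to 1651 in WT, so every knockout lay below every WT library, as for the 7 members without overlap named below. Erythroid markers summed to 26.8 in knockout library 5, to 57.3 to 143.7 in the other knockouts and to 71.3 to 134.2 in WT, with 3 of 11 markers present. Neutrophil markers summed to 17.2 in that library, to 3.0 to 8.04 in the other knockouts and to 1.74 to 3.26 in WT. Fibroblast markers summed to 1991 in knockout library 5, to 4241 to 6447 in the other knockouts and to 4949 to 6259 in WT. The part of these markers in the results below was not tested.

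Most of the set leaned toward lower signal in Lmna KO, and a single gene, Hk2, passed the test. With limma over all 12855 genes tested, 1 of 33 members fell and 0 rose at an adjusted p under 0.05, against 0.0856% of all genes that fell and 0.117% that rose. At an unadjusted p under 0.05, 12 members were lower, against 11.4% of all genes, and 2 were higher, against 9.42%. The members were chosen with earlier results of these data known, so these counts are descriptions. In 7 of the 33 members (21.2%) all 5 knockout libraries lay below all 5 WT libraries, against 6.18% of all genes tested. These were Hk2, Pfkl, Eno3, Pkm, Gys1, Pygm and Phkb. In 0 members did all knockouts lie above WT, against 4.07% of all genes. The same 7 were the ones without overlap when knockout library 5 was left out, where 7.02% of all genes lay wholly below WT and 4.89% wholly above. The median log2 change of the 33 members was -0.21, beside -0.01 for all genes tested, and 25 of the 33 were negative. Without knockout library 5 the median was -0.11 beside -0.01.

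**Figure D1:**
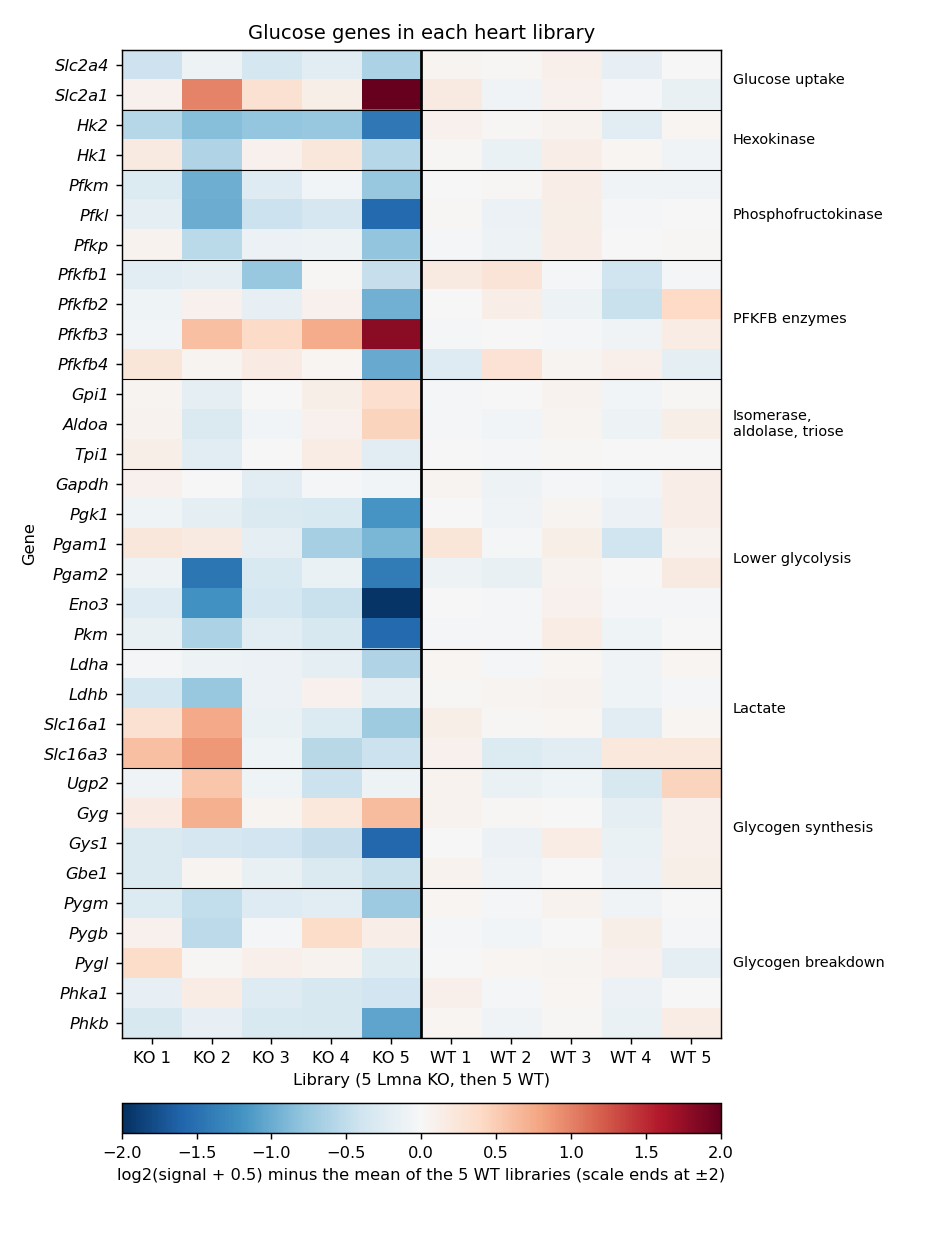
Heat map of the 33 tested glucose genes (rows, grouped by step) in 5 Lmna KO and 5 WT libraries (columns). Colour gives log2(signal + 0.5) minus the mean of the 5 WT libraries, with the scale ending at ±2. Hk2 is blue in all 5 knockouts, -0.57 to -1.43, and Slc2a1 in knockout library 5 lies beyond the scale at 2.25.

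The knockout hearts differed among themselves more than the WT hearts did. The median coefficient of variation of a member was 24.2% in Lmna KO and 6.68% in WT, and 14.9% in knockout libraries 1 to 4. It was larger in Lmna KO for 33 of 33 members, a difference that 90.2% of all tested genes shared. The median deviation of the 33 members from the WT mean was -0.60 in knockout library 5 and -0.07, -0.18, -0.15 and -0.13 in libraries 1 to 4. Within knockout library 2 the members went both ways, from -1.44 for Pgam2 and -1.21 for Eno3 to 0.99 for Slc2a1. In the 5th, 25 members lay below every WT library and 6 above every one, where 41.9% of all tested genes lay below and 40.9% above. Among the WT libraries the 4th was the lowest for this set, with a median of -0.08, and lay below the other 4 WT libraries for 21 members, where 27.4% of all tested genes did.

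**Figure D2:**
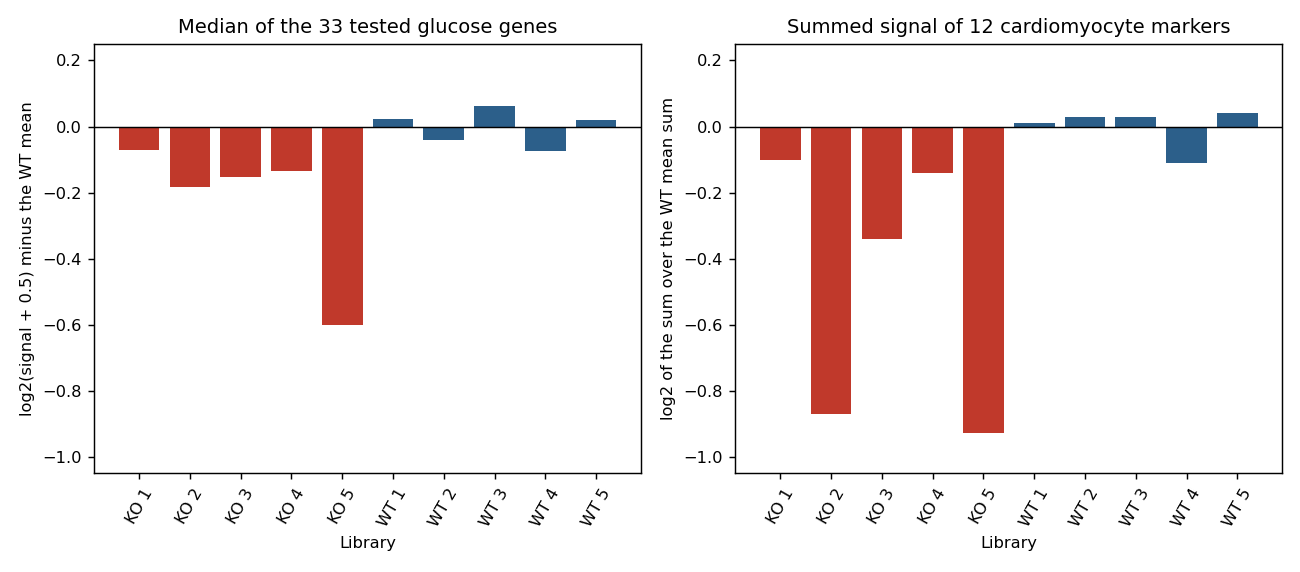
Per-library summary, with Lmna KO libraries in red and WT libraries in blue. The left bars are the median over 33 glucose genes of log2(signal + 0.5) minus the WT mean, and the right bars are the log2 ratio of the summed signal of 12 cardiomyocyte markers to its WT mean. In knockout libraries 2 and 5 the marker sum is at -0.87 and -0.93 and the glucose gene median at -0.18 and -0.60.

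The first step, glucose entry, is served in heart muscle by the insulin-responsive transporter GLUT4, encoded by Slc2a4 (chromosome 11, 69942286 to 69948190, mm10), and in fetal heart and many other cells by GLUT1, encoded by Slc2a1 (chromosome 4, 119108745 to 119137329). Slc2a4 had 175, 216, 183, 199.7 and 150.2 signal units in Lmna KO libraries 1 to 5, against 241, 237, 250.2, 207 and 233 in WT libraries 1 to 5. Of the 5 knockouts, 4 lay below the lowest WT library and the 2nd lay above it. Its log2 change of -0.35 (standard error 0.11) did not pass (limma adjusted p = 0.136). Slc2a1 had 4.69, 9.16, 5.50, 4.77 and 22.7 units in the knockouts, against 5.04, 4.13, 4.68, 4.23 and 3.89 in WT. Only the 2nd, 3rd and 5th knockouts exceeded the highest WT library, and the 5th was far above the others. The ratio of means was 2.13 with all libraries and 1.37 without knockout library 5, and the log2 changes were 0.75 and 0.37 (limma adjusted p = 0.251 and 0.246).

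Hexokinase traps glucose in the cell. The form that insulin-sensitive muscle uses is encoded by Hk2 (chromosome 6, 82725027 to 82774454), and the form found in most tissues, which the fetal heart also uses, by Hk1 (chromosome 10, 62268855 to 62379908). Hk2 had 224, 184, 194, 197 and 124 signal units in Lmna KO libraries 1 to 5, against 352, 339, 352, 285 and 342 in WT libraries 1 to 5. The highest knockout library (224) was below the lowest WT library (285), so the groups did not overlap. Hk2 fell to 0.553 of the WT mean as a ratio of mean signals. Its log2 change in limma was -0.88 (standard error 0.15, limma adjusted p = 0.0449). Knockout libraries 1 to 5 deviated from the WT mean of Hk2 by -0.57, -0.86, -0.775, -0.76 and -1.43 on the log2 scale. Cardiomyocyte marker sums were closest to WT in the 1st and 4th of them and lowest in the 2nd and 5th. Without knockout library 5 the log2 change was -0.74 (limma adjusted p = 0.0026).

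The call of Hk2 lay close to the threshold. It was lost without knockout library 2, 3 or 4 (limma adjusted p = 0.0799, 0.0871 and 0.0567) and without WT library 1, 2, 3, 4 or 5 (0.159, 0.11, 0.177, 0.0843 and 0.152). The log2 change stayed between -0.95 and -0.74 with any 1 library left out. In edgeR's quasi-likelihood test the adjusted p was 0.0503, and in DESeq2 it was 1.98e-05. In the authors' deposited table the log2 ratio was -0.86 with a false discovery rate (FDR) of 0.000637, where 1.59% of rows were lower and 3.93% higher at an FDR under 0.05.

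Hk1 overlapped between the genotypes. It had 206, 120.1, 193, 213 and 122 units in Lmna KO libraries 1 to 5, against 185, 166, 200.5, 188 and 174 in WT. The 1st and 4th knockouts were above the highest WT library and the 2nd and 5th below the lowest (log2 change -0.14, standard error 0.17, limma adjusted p = 0.658). Without knockout library 5 the change was -0.03, and without the 2nd it was -0.02. Divided by exon length, Hk2 was at 32.9 and Hk1 at 35.2 signal units per kb in Lmna KO, against 59.5 and 37.6 per kb in WT. Per kb, Hk2 exceeded Hk1 in 1 of 5 knockout libraries, the 2nd, and in 5 of 5 WT libraries.

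**Figure D3:**
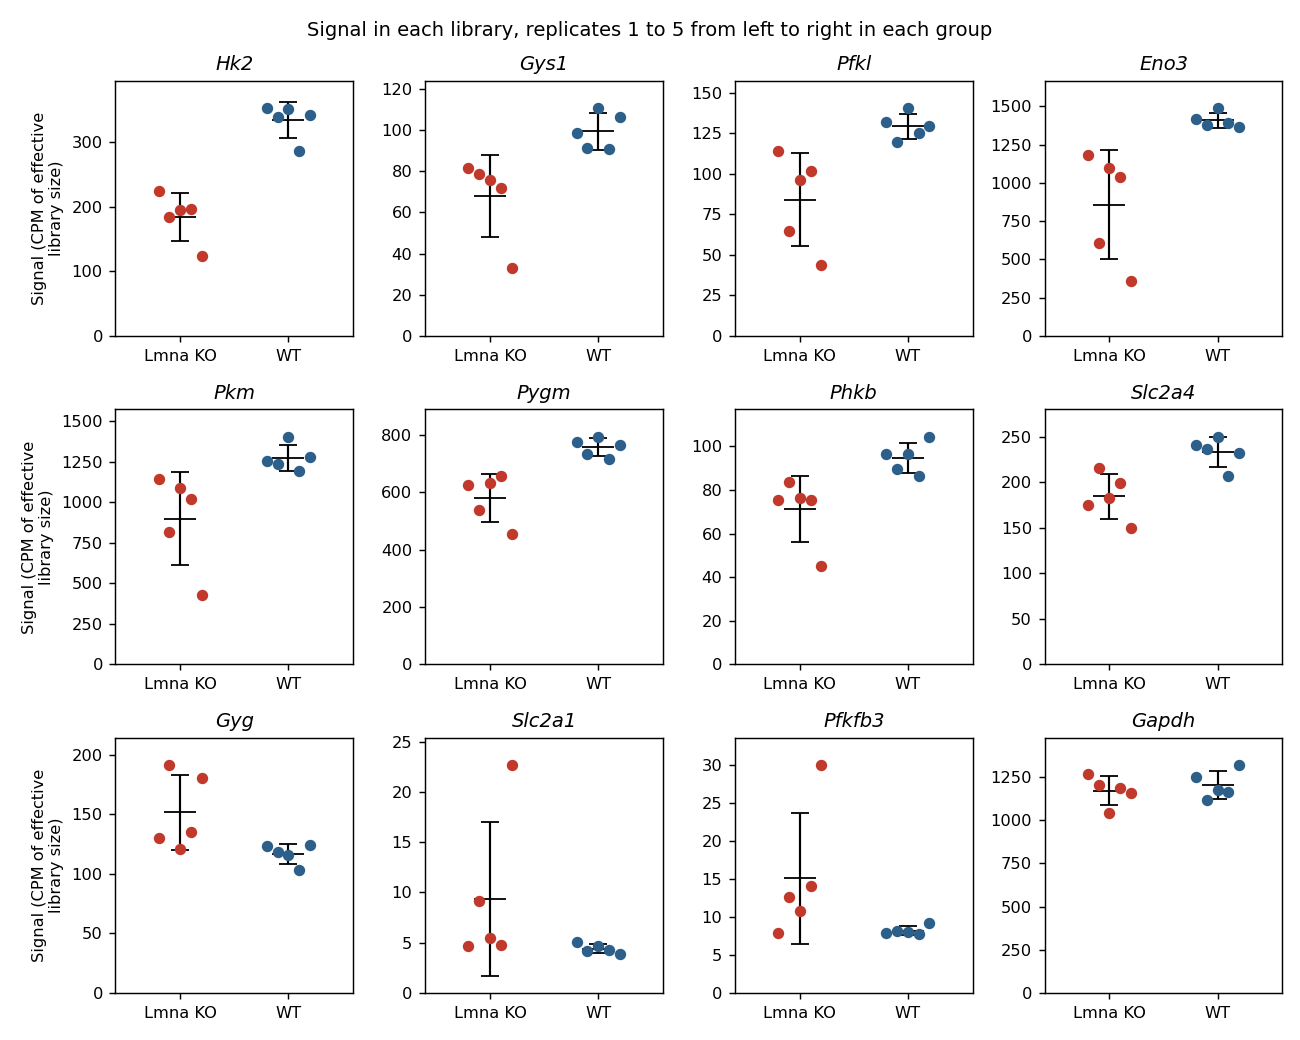
Signal (CPM of the effective library size) of 12 glucose genes in each of 5 Lmna KO (red) and 5 WT (blue) libraries, replicates 1 to 5 from left to right, with mean and SD in black. The 7 genes from Hk2 to Phkb have every knockout below every WT library, whereas Slc2a1 and Pfkfb3 are raised mainly in knockout library 5 (22.7 and 29.97) and Gapdh overlaps.

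The promoter of Hk2 is shown because it was the single member past the threshold, and those of Slc2a1 and Pfkfb3 because they had the highest positive log2 changes. Each is the RefSeq window of GRCm38.p6, from 250 bases before to 50 after the start site, written 5′ to 3′ on the strand of the gene. Capitals mark ACGTG, the core of the hypoxia response element, on either strand, where it reads CACGT on the other strand. The Hk2 window lies at chr6:82774405-82774704 on the minus strand, that of Slc2a1 at chr4:119108495-119108794 on the plus strand and that of Pfkfb3 at chr2:11553880-11554179 on the minus strand.
Hk2: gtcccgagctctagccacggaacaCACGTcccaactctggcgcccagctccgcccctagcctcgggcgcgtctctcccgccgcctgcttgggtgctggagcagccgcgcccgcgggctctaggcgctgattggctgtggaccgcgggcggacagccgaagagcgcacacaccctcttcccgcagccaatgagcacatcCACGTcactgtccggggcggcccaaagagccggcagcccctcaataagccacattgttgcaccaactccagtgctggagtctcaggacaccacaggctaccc
Slc2a1: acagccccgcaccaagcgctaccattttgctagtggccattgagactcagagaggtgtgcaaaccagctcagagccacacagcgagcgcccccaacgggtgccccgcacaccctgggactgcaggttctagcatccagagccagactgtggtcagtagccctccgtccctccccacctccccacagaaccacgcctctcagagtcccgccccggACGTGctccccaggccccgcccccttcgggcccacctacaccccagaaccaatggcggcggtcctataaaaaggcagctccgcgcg
Pfkfb3: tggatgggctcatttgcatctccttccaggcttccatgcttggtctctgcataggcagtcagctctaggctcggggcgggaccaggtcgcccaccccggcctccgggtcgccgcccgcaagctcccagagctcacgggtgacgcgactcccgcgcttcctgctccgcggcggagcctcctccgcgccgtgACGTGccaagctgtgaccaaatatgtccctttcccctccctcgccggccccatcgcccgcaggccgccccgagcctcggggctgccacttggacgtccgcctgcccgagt
The Hk2 window held 2 matches, whose first bases are 25 and 199 of the window, and the other 2 windows held 1 each, at 215 and 191. Both Hk2 matches read CACGT on the strand shown. Windows were found for 33 of the 34 members, all except Slc2a4, and the window whose start site was nearest the 5′ end of the authors' locus was taken. That start site was 13205 bases from the end of the locus for Pfkfb2. It was 694 bases away for Gapdh, 583 for Slc16a3, 208 for Pkm and 138 for Tpi1. ACGTG on either strand was in 15 of these 33 windows (45.5%), against 19.6% of all 32851 windows. The E-box CACGTG, which contains ACGTG, was in 4 (12.1%), against 7.15%, and a form of the binding site of the muscle factor MEF2 was in 2 (6.06%), those of Ldhb and Phka1, against 3.69%. Member windows had a median GC content of 60.7% and all windows 52.7%. The windows of Eno3, Gys1, Pfkl, Pkm and Phkb, which did not overlap between the genotypes, held no ACGTG, and that of Pygm held 1.

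Phosphofructokinase is built from a muscle (Pfkm), a liver (Pfkl) and a platelet (Pfkp) form. Pfkl (chromosome 10, 77986949 to 78009796) had 114, 65.0, 96.3, 102.0 and 43.8 units in Lmna KO libraries 1 to 5, against 132, 119.5, 140.5, 125 and 129.9 in WT. All knockouts were below all WT libraries, with the 2nd and 5th lowest. The log2 change was -0.70 (standard error 0.22, limma adjusted p = 0.138), and -0.48 without knockout library 5 (limma adjusted p = 0.0685). Pfkm, the most abundant of the 3 per kb, had 719, 443, 728, 842 and 518 units in the knockouts, against 865, 885, 955, 834 and 835 in WT. The 4th knockout lay within the WT range, and the log2 change of -0.47 did not pass (limma adjusted p = 0.167). Pfkp had a log2 change of -0.29 (limma adjusted p = 0.289), and of -0.17 without knockout library 5.

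The 4 PFKFB genes had log2 changes of both signs, and none passed. Pfkfb3 (chromosome 2, 11471431 to 11553929), the form with the strongest bias toward making the activator, had 7.91, 12.7, 10.8, 14.1 and 29.97 units in Lmna KO libraries 1 to 5, against 7.93, 8.13, 8.01, 7.80 and 9.15 in WT. Knockouts 2 to 5 exceeded every WT library and the 1st lay among them. The log2 change was 0.70 (standard error 0.27, limma adjusted p = 0.186), and 0.42 without knockout library 5 (limma adjusted p = 0.116). In the authors' deposited table its log2 ratio was 0.88 and its FDR 0.0393. Pfkfb2, the heart form, had 159, 180.3, 152, 179 and 86.9 units in the knockouts, against 169.9, 187, 158, 125 and 224 in WT. Knockouts 1 to 4 lay inside the WT range and the 5th below it (log2 change -0.21, limma adjusted p = 0.572). Without the 5th the change was -0.02, and without WT library 5 or 4 it was -0.11 or -0.32. Pfkfb4 and Pfkfb1 were both under 7 units in every library, with log2 changes of -0.10 and -0.32 (limma adjusted p = 0.815 and 0.314). The Pfkfb4 change was 0.12 without knockout library 5.

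The isomerase, aldolase and triose steps were the flattest of the pathway. Gpi1, which interconverts glucose and fructose phosphates, averaged 522 ± 68.0 in Lmna KO and 496 ± 15.98 in WT (SD, n = 5 each). Aldoa, the muscle aldolase, averaged 2146 ± 413 in Lmna KO and 2043 ± 127 in WT. Tpi1, triose phosphate isomerase, averaged 638 ± 76.6 in Lmna KO and 649.6 ± 9.05 in WT. Their log2 changes of 0.06, 0.05 and -0.03 had standard errors of 0.11, 0.15 and 0.11 (limma adjusted p = 0.750, 0.858 and 0.872). All 3 changed sign without knockout library 5, to -0.005, -0.05 and 0.01. Aldoc, the brain form, was under 1 unit in every library, at 4 to 13 reads in the knockouts and 2 to 6 reads in WT.

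**Figure D4:**
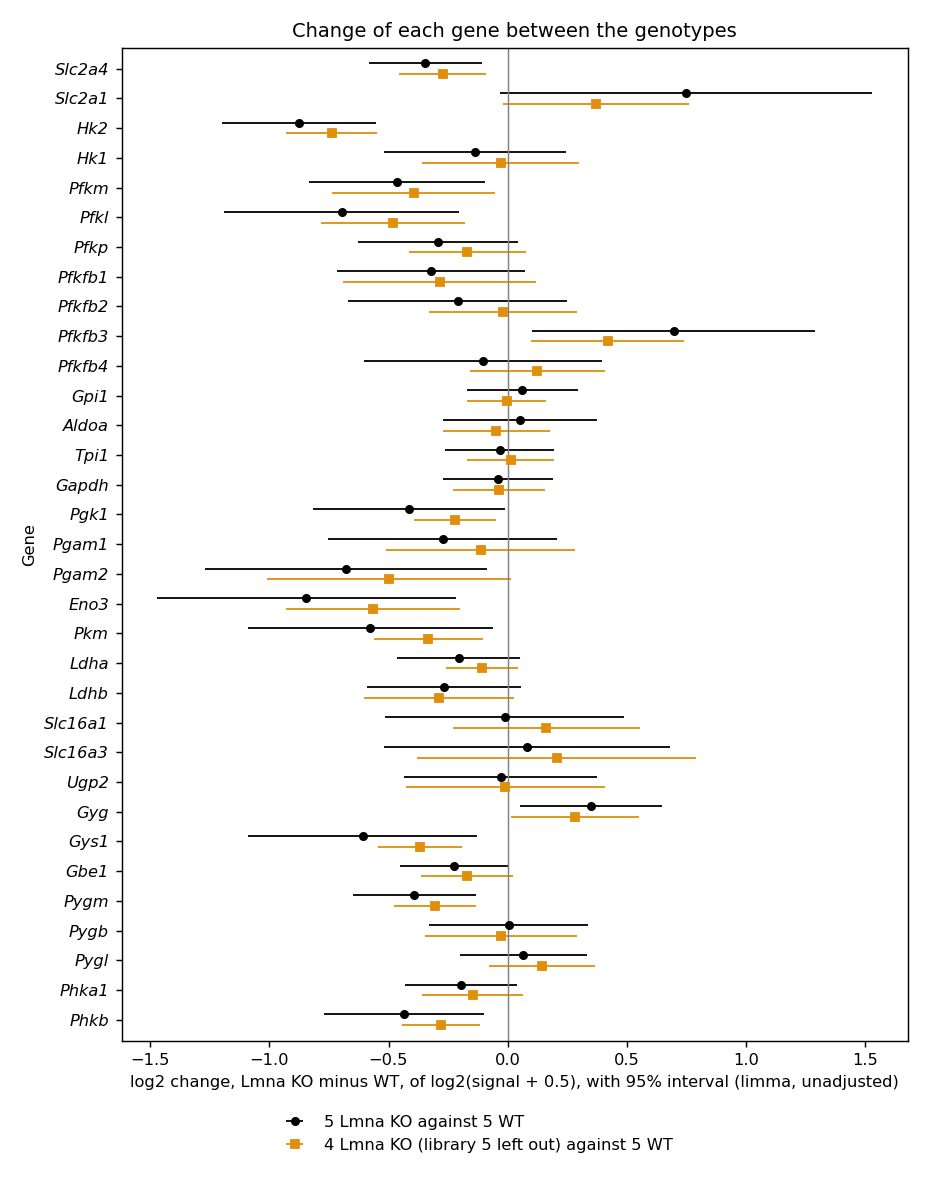
Log2 change (Lmna KO minus WT, on the log2(signal + 0.5) scale) of each of 33 tested glucose genes with its 95% interval from limma, unadjusted. Black circles use all 10 libraries and orange squares leave out knockout library 5. Hk2 lies at -0.88 and -0.74, and the values of Gapdh, Tpi1, Gpi1 and Aldoa lie close to 0.

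In lower glycolysis the muscle enolase and pyruvate kinase were lower in every knockout, whereas Gapdh was level. Eno3 (chromosome 11, 70657176 to 70662513) had 1182, 607, 1099, 1036 and 361 units in Lmna KO libraries 1 to 5, against 1415, 1381, 1487, 1390 and 1366 in WT. The groups did not overlap, and the 2nd and 5th knockouts were well below the other 3. Its log2 change was -0.85 (standard error 0.29, limma adjusted p = 0.151), and -0.57 without knockout library 5 (limma adjusted p = 0.074). Pkm (chromosome 9, 59656368 to 59679375), whose gene gives the M1 and M2 pyruvate kinases, had 1145, 820.4, 1086, 1021 and 432 units in the knockouts, against 1256, 1237, 1405, 1196 and 1279 in WT. Here too the groups did not overlap, and the 5th knockout was lowest (log2 change -0.58, standard error 0.24, limma adjusted p = 0.199). Without that library the log2 change was -0.33. The 2 splice forms of Pkm were not told apart by these gene-level values.

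The other lower steps overlapped between the genotypes. Pgk1, phosphoglycerate kinase, had 519, 480.5, 452, 449 and 244 units in Lmna KO libraries 1 to 5, against 557, 528, 572, 509 and 603 in WT. Its 1st knockout lay within the WT range (log2 change -0.41, limma adjusted p = 0.233), and without the 5th, the lowest, the change was -0.22. Pgam2, the muscle phosphoglycerate mutase, had 353, 139.8, 309, 348 and 144 units, against 357, 345, 399, 379.8 and 433 in WT. The 2nd and 5th knockouts, those with the lowest cardiomyocyte markers, were far below the rest (log2 change -0.68, limma adjusted p = 0.192). Pgam1, the form of most tissues, had a log2 change of -0.27 (limma adjusted p = 0.474), of -0.11 without knockout library 5 and of -0.18 without the 4th. Gapdh averaged 1171 ± 84.6 in Lmna KO and 1204 ± 79.6 in WT (SD, n = 5 each), a log2 change of -0.04 (standard error 0.11, limma adjusted p = 0.841). Gapdh, Pgk1, Aldoa, Ldha and other genes of this pathway have processed pseudogenes, and the treatment of reads shared with them is not known here.

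Lactate dehydrogenase and the monocarboxylate transporters that move lactate and pyruvate showed no common direction. Ldha, the muscle-type subunit, averaged 483 ± 70.2 in Lmna KO and 553 ± 20.5 in WT (SD, n = 5 each), and Ldhb, the heart-type subunit, averaged 725 ± 150.4 in Lmna KO and 858 ± 39.6 in WT. Neither passed, with log2 changes of -0.21 and -0.27 (limma adjusted p = 0.324 and 0.312). The change of Ldha was -0.11 without knockout library 5, and that of Ldhb was -0.14 without knockout library 2. Slc16a1, encoding the transporter MCT1, had 620.3, 844, 456, 413 and 306 units in Lmna KO libraries 1 to 5, against 544, 507, 513, 434 and 513 in WT. Knockouts 1 and 2 were above all WT libraries and knockouts 4 and 5 below all of them, so the log2 change was -0.01 (standard error 0.23, limma adjusted p = 0.978). Slc16a3, encoding MCT4, had 1.02 to 3.57 units in the knockouts and 1.35 to 2.09 in WT (log2 change 0.08, limma adjusted p = 0.883).

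Glycogen synthesis starts from UDP-glucose made by the product of Ugp2, is primed by glycogenin, encoded by Gyg, extended by glycogen synthase and branched by the enzyme of Gbe1. Gys1 (chromosome 7, 45434839 to 45456617), the muscle glycogen synthase, had 81.3, 78.4, 75.6, 71.8 and 32.9 units in Lmna KO libraries 1 to 5, against 98.6, 91.0, 110.4, 90.5 and 106 in WT. The groups did not overlap, knockouts 1 to 4 lay close together and the 5th far below them. With all libraries its log2 change of -0.61 did not pass (standard error 0.22, limma adjusted p = 0.165). Without knockout library 5 it fell, at 76.8 ± 4.05 in Lmna KO (SD, n = 4) and 99.4 ± 8.93 in WT (SD, n = 5), a log2 change of -0.37 (limma adjusted p = 0.0287, where 2.71% of all genes fell and 2.27% rose). Hk2 and Gys1 were the 2 members called there. Gyg leaned the other way, with 130.2, 191, 121, 135 and 180.4 units in the knockouts, against 123, 118, 116, 103 and 125 in WT. All knockouts but the 3rd were above every WT library (log2 change 0.35, standard error 0.14, limma adjusted p = 0.185). Gbe1 had a log2 change of -0.23 (limma adjusted p = 0.240), and Ugp2 one of -0.03 with knockout library 2 far above the other knockouts (limma adjusted p = 0.941).

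Glycogen is broken down by phosphorylase, which phosphorylase kinase switches on. Pygm (chromosome 19, 6384429 to 6398459), the muscle phosphorylase, had 627, 539, 632, 656 and 455 units in Lmna KO libraries 1 to 5, against 775, 733, 793, 717 and 764 in WT. The groups did not overlap. Its log2 change was -0.39 (standard error 0.12, limma adjusted p = 0.125), and the adjusted p was 0.0252 in DESeq2. Phkb (chromosome 8, 85841002 to 86060642), the beta subunit of phosphorylase kinase, had 75.5, 83.9, 76.4, 75.6 and 45.2 units in the knockouts, against 96.7, 89.5, 96.5, 86.3 and 104.4 in WT. These groups did not overlap either (log2 change -0.44, standard error 0.15, limma adjusted p = 0.160), and the change was -0.28 without knockout library 5. Pygb, the brain form, averaged 1011 ± 212 in Lmna KO and 989 ± 47.6 in WT, and Pygl, the liver form, 11.2 ± 1.76 in Lmna KO and 10.6 ± 0.813 in WT (SD, n = 5 each). Both had log2 changes near 0, 0.005 and 0.07 (limma adjusted p = 0.987 and 0.769). Phka1, the muscle alpha subunit of phosphorylase kinase, had a log2 change of -0.20 (limma adjusted p = 0.307).

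With the 2 knockout libraries of lowest cardiomyocyte markers left out, 3 knockouts remained against 5 WT libraries and the spread within Lmna KO was smaller. Marker sums in these, knockout libraries 1, 3 and 4, were still -0.10, -0.34 and -0.14 relative to the WT mean on the log2 scale. Knockout libraries 3 and 4 (135300 and 154900) lay below the lowest WT library (158100). The part of this in the calls below was not tested. In that fit 10 of 33 members (30.3%) fell and 0 rose, where 6.42% of all genes fell and 4.24% rose. The 10 were Slc2a4, Hk2, Pfkl, Eno3, Pkm, Gys1, Gbe1, Pygm, Phka1 and Phkb, with log2 changes of -0.23 to -0.70 and limma adjusted p-values of 0.00126 to 0.0463. DESeq2 with all libraries called 2 members lower, Hk2 and Pygm (background 2.5%), and 0 higher (background 3.61%). The edgeR test called 0 lower (background 0.0545%) and 0 higher (background 0.101%), with 9 lower (background 9.13%) and 3 higher (background 12%) at an unadjusted p under 0.05.

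For 11 pairs of genes that encode forms of the same step, the difference in log2(signal + 0.5) between the 2 forms was taken within each library, which depends little on how that library was scaled. The form typical of muscle or heart was taken first. Differences were compared by a two-sided exact permutation test of 5 against 5 libraries, adjusted over the 11 pairs. Slc2a4 minus Slc2a1 was 4.49 ± 1.04 in Lmna KO and 5.58 ± 0.13 in WT (SD, n = 5 each). It was lower in 5 of 5 knockouts than in any WT library, with a mean difference of -1.09 (exact permutation p = 0.00794, the smallest that 5 against 5 allow, adjusted p = 0.0437). The larger part of that difference lay in Slc2a1, whose own log2 change was 0.75, beside -0.35 for Slc2a4. Without knockout library 5 the difference was -0.65, with log2 changes of 0.37 for Slc2a1 and -0.27 for Slc2a4. Pygm minus Pygl was 5.63 ± 0.14 in Lmna KO and 6.09 ± 0.14 in WT, also lower in 5 of 5 knockouts, with a difference of -0.46 (exact permutation p = 0.00794, adjusted p = 0.0437) and of -0.45 without knockout library 5. Most of that difference lay in Pygm, whose own log2 change was -0.39, beside 0.07 for Pygl. The calls of both pairs were lost when any library but knockout 2 was left out, where 4 pairs at the smallest p of 0.0159 are needed to pass.

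Hk2 minus Hk1 was 0.12, 0.61, 0.01, -0.12 and 0.02 in Lmna KO libraries 1 to 5, against 0.93, 1.03, 0.81, 0.60 and 0.97 in WT. Only the 2nd knockout reached the WT range, and the mean difference of -0.74 had an exact permutation p of 0.0159 and an adjusted p of 0.0524. Pfkfb2 minus Pfkfb3 and Pygm minus Pygb differed by -0.91 and -0.40, each with 4 of 5 knockouts below every WT library (exact permutation p = 0.0238, adjusted p = 0.0524 for both). Without knockout library 5 these differences were -0.44 and -0.28. The remaining 6 pairs had exact permutation p-values of 0.0556 to 0.802. For Ldhb minus Ldha the genotypes differed by -0.06, and by -0.18 without knockout library 5, with knockouts spread from -0.03 to 1.05 and WT from 0.55 to 0.72.

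**Figure D5:**
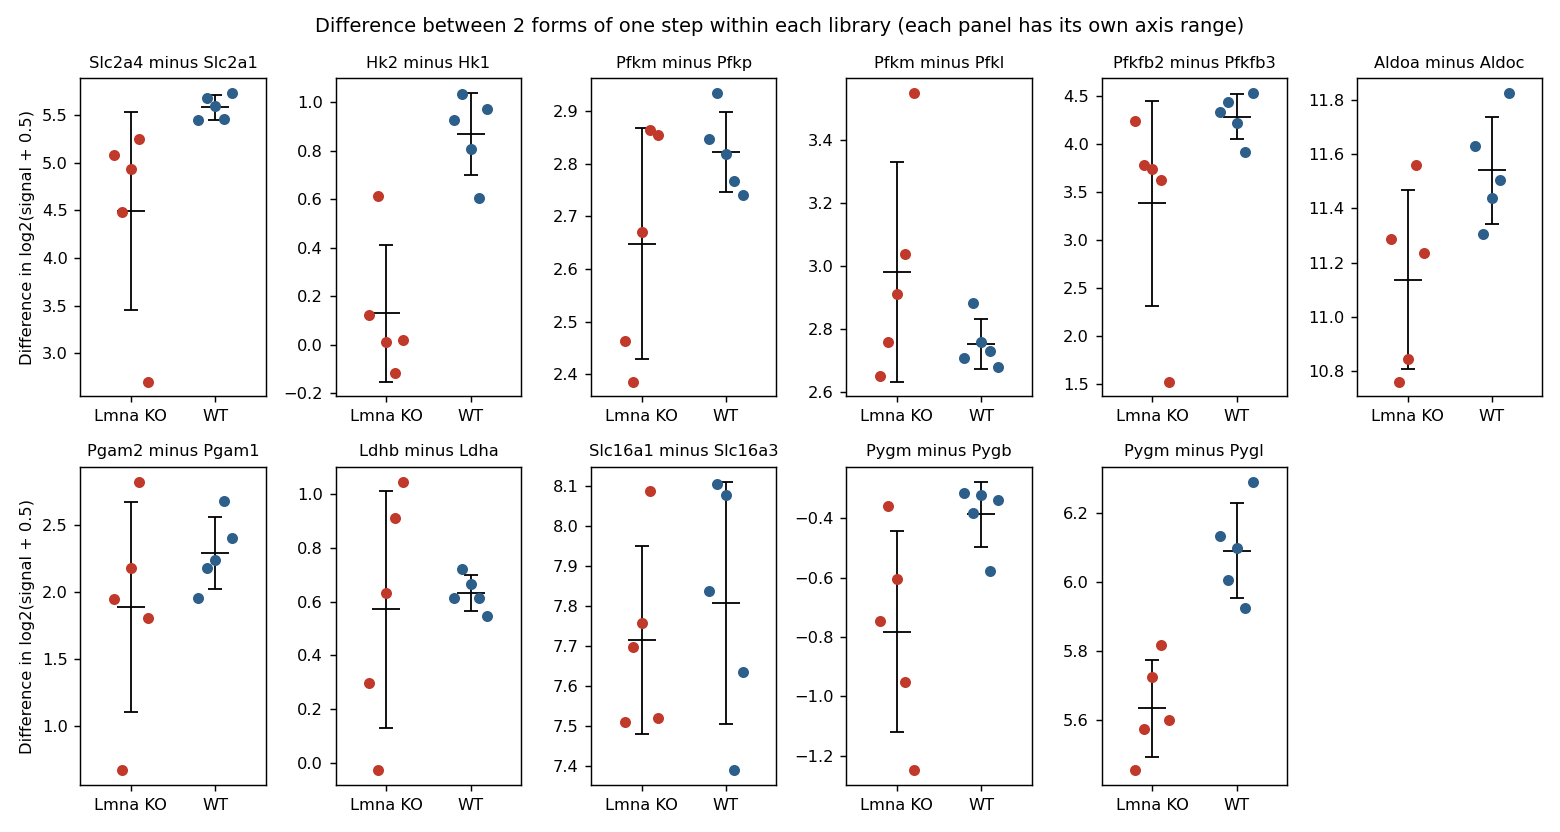
Difference in log2(signal + 0.5) between 2 genes of the same step in each of 5 Lmna KO (red) and 5 WT (blue) libraries, replicates 1 to 5 from left to right, with mean and SD in black and a separate axis range in each of 11 panels. For Slc2a4 minus Slc2a1 and Pygm minus Pygl every knockout lies below every WT library, and for Hk2 minus Hk1 all but the 2nd knockout (0.61) lie well below the WT libraries.

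Levels per kb of exon placed the abundant steps in order. In WT, Eno3 was highest at 899 ± 30.4 signal units per kb, followed by Gapdh at 806 ± 53.2 and Aldoa at 797 ± 49.6 (SD, n = 5), and Gapdh and Aldoa did not differ beyond their spread. In Lmna KO, Aldoa was at 837 ± 161, Gapdh at 783 ± 56.6, Ldhb at 556 ± 115 and Eno3 at 547 ± 227 per kb. Aldoa and Gapdh did not differ beyond their spread in Lmna KO, and neither did Ldhb and Eno3. Per kb, Slc2a4 exceeded Slc2a1 by 22.9 times in Lmna KO and 61.7 times in WT, as ratios of means. Pygm and Pygb were close, with a ratio of 0.784 in Lmna KO and 1.04 in WT. Lengths are the merged exons of protein-coding transcripts in GENCODE M21, and the authors' counting may have used other exons.

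A further 5 lists of 106 genes around the pathway held 94 tested genes, and 0 of them passed in limma with all libraries. At an unadjusted p under 0.05 in limma, 18 of the 94 were lower, against 11.4% of all genes, and 9 were higher, against 9.42%. The edgeR test called 0 of them, and DESeq2 called 5, where 2.5% of all genes were called lower and 3.61% higher. Glycogen control genes had a median log2 change of -0.14 over 18, and of -0.13 without knockout library 5. Among them Ppp1r3a, the muscle glycogen-targeting subunit of protein phosphatase 1, had a log2 change of -0.30 (limma adjusted p = 0.336). NADH shuttle and pyruvate entry genes had a median of -0.31 over 13, and of -0.16 without knockout library 5. In 5 of these 13 every knockout lay below every WT library, against 6.18% of all genes, and in 0 above, against 4.07%. Of 18 glycogen control genes 2 lay wholly below and 1 above, and of 33 regulators of glucose use 2 and 2. Of 15 other transporters and isozymes these were 0 and 1, and of 15 pentose phosphate and hexosamine genes 0 and 0. Mdh2, the mitochondrial malate dehydrogenase, Mpc2, a subunit of the mitochondrial pyruvate carrier, and Pcx, pyruvate carboxylase, had log2 changes of -0.54, -0.48 and -0.36 (limma adjusted p = 0.0972, 0.191 and 0.382) and fell without knockout library 5, with log2 changes of -0.47, -0.27 and -0.60 (limma adjusted p = 0.0422, 0.0425 and 0.0194). Pcx was 17.9 in that library and 6.59 to 9.32 in the other knockouts, against 10.3 to 12.4 in WT. Mdh1, the cytosolic malate dehydrogenase, and Got2, the mitochondrial aspartate aminotransferase, did not pass (log2 changes -0.47 and -0.15, limma adjusted p = 0.211 and 0.538), and were at -0.27 and -0.03 without that library.

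Other transporters and isozymes had a median of -0.19 over 15, which was -0.001 without knockout library 5. Among them were Bsg, the partner protein of MCT1, at a log2 change of 0.12 and Fbp2, the muscle fructose bisphosphatase, at -0.53 (limma adjusted p = 0.503 and 0.375), and Fbp2 was at -0.17 without that library. Pentose phosphate and hexosamine genes had a median of 0.03 over 15, and of -0.05 without knockout library 5. Sord, sorbitol dehydrogenase, was at -0.13 and Taldo1, transaldolase, at -0.34 (limma adjusted p = 0.675 and 0.195), and Sord was at -0.29 without that library. Regulators of glucose use had a median of 0.07 over 33, and of 0.09 without knockout library 5, and held 3 of the 5 DESeq2 calls. The insulin receptor substrate gene Irs2 was among those 3 calls, and the receptor gene Igf1r was not. In limma, Igf1r and Irs2 had log2 changes of 0.75 and 1.08 (limma adjusted p = 0.200 and 0.0972). Both rose without knockout library 5, by 0.40 and 0.89 (limma adjusted p = 0.0399 and 0.0479). Irs2 had 60.3, 24.2, 33.5, 50.1 and 75.8 units in Lmna KO libraries 1 to 5, against 17.6, 25.1, 18.7, 22.0 and 23.0 in WT, so only the 2nd knockout was within the WT range. Txnip, an inhibitor of glucose uptake, and Mef2a, a muscle transcription factor, had log2 changes of 0.54 and -0.06 (limma adjusted p = 0.415 and 0.744), and Txnip was at 0.27 without knockout library 5.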

How the data were processed

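Heart RNA of 5 Lmna KO and 5 WT mice was compared. RNA was isolated with a miRNeasy kit and libraries were made with a TruSeq kit, per the labels' protocols. TopHat2, Cufflinks and edgeR were used with build mm10, per the submitters' processing notes. Versions, roles, the read counter and the use of strand: not given in the sources used here. A signal value per gene and library was deposited, by the sheet's name CPM of the effective library size. The authors also deposited their own comparison: positions, p-values, FDR, a log2 ratio and each genotype's signal. Division by the smallest step of each library turned 100% of values into whole reads (tolerance 0.01 read), giving 15259545 to 22146030 reads. Totals this deep leave counting error small except for the lowest genes. The labels' design text counts 5 mice per genotype, so libraries were treated as separate animals. No 2 libraries of a genotype were alike within counting error, the lowest chi-square over its degrees of freedom being 5.09. Rows named by a date instead of a gene (21, with 0.1336% to 0.2037% of reads) were left out.

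The test was limma 3.58.1 (R 4.3.3) on log2(signal + 0.5) with genotype as the factor, an intensity trend and two-sided Benjamini-Hochberg adjustment over the 12855 genes whose mean signal reached 1. Fold changes on this scale understate the change of low genes. Form pairs were tested by exact permutation (scipy 1.17.1). Every member was named, with Lmna. Of 5 related lists the called genes or else the 2 most abundant were named, and those called without knockout library 5 were added. Members, lists and tests were chosen with earlier results of these data known. Alternatives were other pseudocounts, no filter, median-of-ratios scaling, the replicate block, leaving out libraries, and edgeR 4.0.16 and DESeq2 1.42.0 on recovered reads. The edgeR test without knockout library 5 was chosen after seeing the data. The functions were tested on simulated reads drawn with the spread of the WT libraries, which was smaller than that in Lmna KO. A result for 1 gene of these lists is not reported here.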

Additional observations from a re-analysis of the deposited data

Results flagged for a closer look

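Each of 92 groups of 5 values (34 members, Lmna and 11 form differences in each genotype) was examined for a library far from the others, and 11 held such a library. Chance flags about 1 in 20 groups. Of the 11, 7 were knockout library 5 and 1 was knockout library 2.

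In knockout library 5, Slc2a1 (22.7 signal units, against 4.69 to 9.16 in the other knockouts) and Pfkfb3 (30.0, against 7.91 to 14.1) were far above the other knockouts. Pfkfb4 (2.39, against 5.46 to 6.35), Pgk1 (244, against 449 to 519), Gys1 (32.9, against 71.8 to 81.3) and Phkb (45.2, against 75.5 to 83.8) were far below them in that library. The difference Pfkfb2 minus Pfkfb3 was 1.52 there, against 3.62 to 4.24 in the other knockouts. Ugp2 was 455 in knockout library 2, against 231 to 296 in the others.

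Among WT libraries, Hk2 was 285 in the 4th, against 339 to 352 in the others. Pygm minus Pygb was -0.58 in the same library, against -0.38 to -0.31. Pfkfb3 was 9.15 in the 5th WT library, against 7.80 to 8.12.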

How the results depend on the processing

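Correlations of the deviations of same-numbered libraries were 0.182, -0.134, 0.171, 0.12 and 0.03. Between libraries of different numbers they ranged from -0.335 to 0.252. These values gave no clear sign of pairing by replicate number, but they cannot exclude it. With the replicate block, 0 members were called lower (Hk2 limma adjusted p = 0.081) and 0 form pairs passed, where the smallest sign-flip p is 0.0625.

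The count of all genes called was 26, and 6 to 640 with any 1 library left out, the 640 without knockout library 5. It was 1370 without knockout libraries 2 and 5, 786 with DESeq2 and 623 with edgeR without knockout library 5. Members called lower numbered 1, and 0 to 2 with any 1 library left out, 10 without knockout libraries 2 and 5, 0 with edgeR, 2 with DESeq2 and 2 with edgeR without knockout library 5. In all of these 0 members were called higher. Other pseudocounts, no filter and median-of-ratios scaling left 1 member called. The median log2 change of the members ranged from -0.26 to -0.10. Of the form pairs 2 passed, against 0 without knockout libraries 2 and 5 and 0 to 4 with any 1 library left out.

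Signs turned only for members that were not called. With any 1 library left out, log2 changes ranged from -0.187 to 0.124 for Pfkfb4, -0.005 to 0.123 for Gpi1, -0.048 to 0.139 for Aldoa, -0.08 to 0.013 for Tpi1, -0.072 to 0.001 for Gapdh, -0.204 to 0.162 for Slc16a1, -0.115 to 0.241 for Slc16a3, -0.172 to 0.084 for Ugp2, -0.084 to 0.135 for Pygb and -0.009 to 0.143 for Pygl. Ldhb minus Ldha ranged from -0.18 to 0.089. Without knockout libraries 2 and 5 the sign turned for Hk1 (0.162), Pfkfb4 (0.147), Tpi1 (0.087), Slc16a3 (-0.013) and Pgam2 minus Pgam1 (0.028). With edgeR without knockout library 5 it turned for Hk1 (0.013), Pfkfb4 (0.129), Aldoa (-0.033), Tpi1 (0.03), Slc16a1 (0.229) and Ugp2 (0.025), and for Slc16a1 with edgeR (0.082) and DESeq2 (0.08) on all libraries. The cause was not tested. Depth limits Aldoc, Slc16a3 and Pfkfb1, with at most 74 reads in any library.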
